A study of Mus musculus with 30 samples.

Results

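Dbp, Tef, Hlf, Nr1d1, Nr1d2 and Per2 are output and feedback genes of the circadian clock, and their transcripts were followed in the liver of 30 mice. Their probes were matched by gene symbol, and all 6 were among the 8996 genes tested. RNA from the left liver lobe of each mouse was read on its own Agilent array in a single colour (Cy3), with 3 mice in each of 10 groups of gavage and sex. Mice started at 8 weeks of age on standard chow and had 30 days of daily gavage, in a volume of 500 µl. The first experiment gave females and males a decoction of root flour from the chicory genotype G35 or G12, each mouse taking 10 mg of flour a day, or water only (control 1). In a separate period, the second experiment was run, where females and males received inulin at 6.9 mg a day for each mouse, a dose matched in the labels to the inulin of the G35 roots, or water (control 2). The strain of the mice and the hour at which livers were taken are not given in the sources used here. All groups were gavaged, so no ungavaged liver was set beside them.

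The liver clock is a transcriptional feedback loop in which the activators BMAL1 and CLOCK bind E-box sequences and switch on both their own repressors and a set of output genes. Transcripts of most of these genes rise and fall steeply over the day in mouse liver, with DBP and REV-ERBα (Nr1d1) messages among the most strongly cycling ones, so that their level in a single liver depends on the hour of sampling and on feeding time. Dbp, Tef and Hlf encode the PAR bZIP transcription factors, which bind D-box sequences and drive genes of drug and lipid metabolism. Nr1d1 and Nr1d2 encode the nuclear receptors REV-ERBα and REV-ERBβ, which repress Arntl (BMAL1) and other targets, and Per2 encodes a repressor of BMAL1 and CLOCK.

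Dbp lies on chromosome 7 (chr7:45705100-45710203, GRCm38.p6, RefSeq), Tef on chromosome 15 (chr15:81802673-81826863), and Hlf and Nr1d1 on chromosome 11 (chr11:90336535-90390917 and chr11:98767932-98775377). Nr1d2 lies on chromosome 14 (chr14:18204056-18239106) and Per2 on chromosome 1 (chr1:91415977-91459351). RefSeq promoter windows of 300 bases, from 250 before to 50 after a transcript start, were at hand for 5 of the 6 genes, in 6 windows of which 2 belonged to Tef. The E-box CACGTG, searched on both strands like the other motifs, was present in both Tef windows, and in 7.15% of all 32851 windows. The D-box TTANGTAA was in none of the 6 windows, against 2.32% of all windows. The core AGGTCA, bound by REV-ERB and ROR receptors, was in the Nr1d2 window and in 16.3% of all windows. These matches describe letters only, and binding was not measured. The stretches that hold them are shown because they carry the motifs through which the loop is known to act on its own members, with the motif in capitals (GRCm38.p6, chr15:81802501-81802596 and chr15:81811231-81811326 on the plus strand for Tef, chr14:18239133-18239228 on the minus strand for Nr1d2).
Tef, first window: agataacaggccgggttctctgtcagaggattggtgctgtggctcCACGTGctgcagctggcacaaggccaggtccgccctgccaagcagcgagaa
Tef, other window: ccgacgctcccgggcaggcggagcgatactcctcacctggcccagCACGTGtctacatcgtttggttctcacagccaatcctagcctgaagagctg
Nr1d2: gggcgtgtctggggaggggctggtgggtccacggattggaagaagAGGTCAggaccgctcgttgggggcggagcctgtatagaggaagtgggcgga

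Levels below are log2 intensities after background correction and quantile normalization, read from 1 probe per gene, and each gene is compared only with itself. In liver RNA of all cell types together, fewer cells of a type and less RNA per cell cannot be told apart. The summed level of 6 hepatocyte markers averaged 17.52 to 17.80 log2 in the 10 groups, so the defining markers of the labelled tissue were present throughout. The 2 pancreas acinar markers measured summed to 11.93 to 15.99 log2 in male G12 livers, against 9.19 to 9.27 in male control 1. In females that sum reached 15.22 under G35, 14.95 under G12 and 12.33 in control 1. It was at most 9.58 in male G35 livers and 10.44 in the inulin experiment. The part of this signal in the values of the 6 genes was not tested. The arrays lay on 10 slides, 5 per experiment, and array medians ran from 141 to 511 intensity units. In males, the controls of each experiment all lay at slide position 4, where no gavaged male lay, so that position and gavage cannot be told apart in males. Nr1d1 and Per2 were dim, below the array's median on 30 of 30 arrays. Per2 read 0.983 to 2.00 times the array's 5th percentile and Nr1d1 1.14 to 3.63 times it. Differences this close to background can be compressed, and they also depend on how arrays of unequal brightness are scaled. Dbp had a second probe, and the probe used read -0.12 to 0.68 log2 above it (median 0.15).

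One array had a patch of low signal that touched a member, with features placed by their number at an assumed 85 per line. In female G12 replicate 2, the 60 features around the Nr1d2 probe had a median of -0.76 log2 relative to those on the other arrays. On the other 29 arrays that neighbourhood was at -0.18 to 0.24. The neighbourhoods of the other 5 probes lay between -0.38 and 0.26 on all 30 arrays. The Nr1d2 values that stand alone are therefore given with and without that mouse, and counts and ranges over several genes include it.

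Mice differed within groups as well as between them. The widest range within a group of 3 was larger than the span of the 10 group means for Tef (1.10 against 0.53 log2), Hlf (1.10 against 0.85), Nr1d2 (1.25 in female control 1, against 0.99) and Per2 (0.65 against 0.39). It was smaller for Nr1d1 (0.69 against 0.98) and about equal for Dbp (1.08 against 1.11). The median range within a group was 0.26 log2 for Hlf to 0.60 for Tef. Over all 30 mice, groups together, the level spanned 1.52 log2 (2.87-fold) for Dbp, 1.26 (2.39-fold) for Tef, 1.54 (2.91-fold) for Hlf, 1.18 (2.26-fold) for Nr1d1 and 0.80 (1.74-fold) for Per2, beside 1.10 (2.15-fold) for the median gene. Nr1d2 spanned 1.92 log2 (3.77-fold), and 1.86 (3.63-fold) without female G12 replicate 2. The standard deviation within groups (residual SD) was 0.278 log2 for Dbp, 0.339 for Tef, 0.261 for Hlf, 0.218 for Nr1d1, 0.354 for Nr1d2 and 0.232 for Per2, against a median of 0.226 over all genes. Nr1d2 had a larger within-group spread than 85.3% of genes (84.9% without that mouse) and Tef than 83.3%. Nr1d1 lay above 46.1% of genes, but above 75.7% with slide in the model and 27.4% with 75th percentile scaling. With slide in the model, the Tef spread was 0.186 log2 and that of Nr1d2 0.363, or 0.232 without that mouse, beside 0.169 for the median gene. The mouse at the top differed from gene to gene: 6 mice were highest and 6 were lowest, 1 for each gene.

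**Figure D1:**
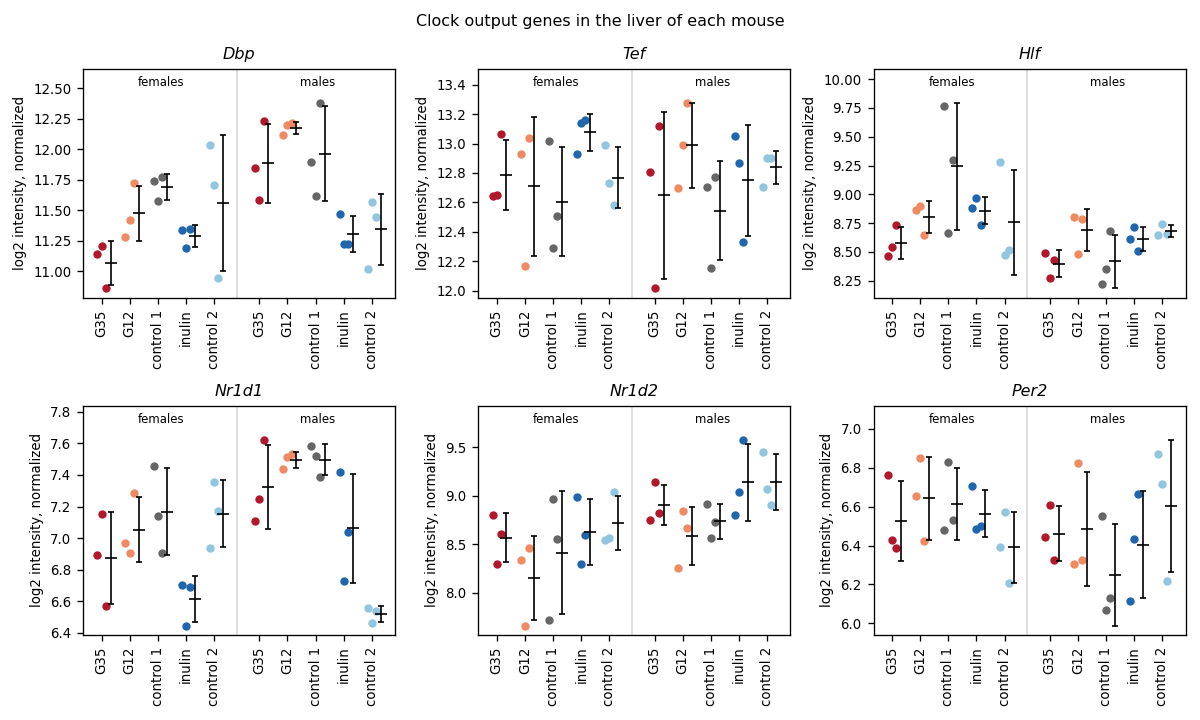
Normalized log2 intensity (y axis) of each gene in each mouse, by gavage (x axis) for females and males; points are mice and bars are the group mean ± SD (n = 3). Groups overlap for most genes, and Nr1d1 in male control 2 (6.46 to 6.56) lies below male control 1 (7.39 to 7.59).

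Dbp, which drives D-box genes of the liver, was highest in male G12 livers (12.18 ± 0.05, SD, n = 3) and lowest in female G35 livers (11.07 ± 0.18), a gap of 1.11 log2 or 2.15-fold. In the order of its 10 group means, 8 of the 9 gaps between neighbours were smaller than the larger SD of the pair. For the other 5 genes all 9 gaps were, and the ranges of neighbours overlapped in 9 of 9 pairs for each of the 6 genes. Tef, its paralogue, ran from 13.07 ± 0.12 in female inulin livers to 12.54 ± 0.34 in male control 1 livers. Hlf ran from 9.24 ± 0.55 in female control 1 to 8.40 ± 0.11 in male G35 livers.

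Nr1d1 was highest in male control 1 (7.50 ± 0.10) and lowest in male control 2 (6.52 ± 0.05), so its widest gap, 0.98 log2 or 1.97-fold, lay between groups that both received water. Nr1d2 ran from 9.14 ± 0.28 in male control 2 to 8.15 ± 0.43 in female G12, or 8.40 in the 2 female G12 mice outside the patch. Male control 2 was thus lowest for Nr1d1, while for Nr1d2 it was tied at the top with male inulin (9.14 ± 0.40, a gap of 0.001 log2). Per2 spanned the least, with 6.64 ± 0.21 in female G12 and 6.25 ± 0.26 in male control 1.

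None of the 6 genes passed the test under G35. Calls required an adjusted p under 0.05 in limma's fit to all 30 arrays (Benjamini-Hochberg over the 8996 genes), and 0.0556% of genes were called under G35 averaged over the sexes, 0% in females and 0.0111% in males. Unadjusted p was under 0.05 for 708 genes in the averaged comparison, 724 in females and 528 in males. Averaged over the sexes, G35 minus control 1 was -0.35 ± 0.16 log2 (SE, 6 mice against 6) for Dbp (adjusted p = 0.585) and -0.34 ± 0.15 for Hlf (adjusted p = 0.562). It was -0.23 ± 0.13 for Nr1d1, 0.14 ± 0.19 for Tef, 0.16 ± 0.19 for Nr1d2 and 0.06 ± 0.13 for Per2. The 95% interval of the Dbp difference ran from -0.67 to -0.03 and that of Hlf from -0.64 to -0.04.

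The Dbp and Hlf differences under G35 were larger in females than in males, by a margin that did not pass its own test. Dbp was at 11.14, 11.21 and 10.86 in female G35 livers, against 11.74, 11.57 and 11.77 in female control 1. Each G35 female was below each control female, which held in the lower direction for 5.62% of all genes. The difference was -0.63 ± 0.22 log2 (adjusted p = 0.413). In males Dbp was at 11.85, 11.58 and 12.23 under G35, against 11.90, 11.62 and 12.38 in control 1. These overlapped, with a difference of -0.08.

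Hlf was at 8.46, 8.54 and 8.73 in female G35 livers, against 9.77, 8.66 and 9.30 in female control 1. The groups overlapped through control replicate 2, and the difference was -0.66 ± 0.21 log2 (adjusted p = 0.349). Without that control mouse it was -0.95 and passed (adjusted p = 0.0483), in a fit where the share of all genes called was not counted. With slide as a block and all mice it was -0.82 (adjusted p = 0.0809). In males the Hlf difference was -0.02. The difference between the sexes in the G35 effect was -0.64 ± 0.29 for Hlf (adjusted p = 0.799) and -0.55 for Dbp (adjusted p = 0.875), and it was called for 0 of the 6 genes (0.0222% of all genes). On the 4 sets of arrays that share a sex and a slide, Dbp was higher under G35 in 0 of 4 (-0.57 to -0.03) and Hlf in 1 of 4 (-1.26 to 0.27). The only female set, slide 6, gave the -0.57 and -1.26, from 2 G35 mice and 1 control mouse (replicate 1, Hlf at 9.77). The male sets gave -0.05, -0.03 and -0.15 for Dbp, and 0.27, -0.08 and -0.25 for Hlf. Over the 8 acute phase genes measured, the summed level was 15.59 to 17.30 log2 in female G35 livers, against 14.97 to 15.69 in female control 1, and 15.48 to 16.96 in male G35 livers, against 15.50 to 15.62 in male control 1. The part of that response in the Dbp and Hlf values was not tested.

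Averaged over the sexes, the 6 genes differed between G12 and control 1 by -0.20 (Nr1d2, or -0.08 without the mouse of the patched array) to 0.27 log2 (Tef). None was called, and neither was any other gene in the averaged comparison (0%, with 469 genes at an unadjusted p under 0.05). Tef differed by 0.27 ± 0.19 averaged (adjusted p = 0.958) and by 0.44 ± 0.26 in males. Hlf in females was at 8.87, 8.90 and 8.64 under G12, against 9.77, 8.66 and 9.30 in control 1, a difference of -0.44 ± 0.21 (adjusted p = 0.428; 0.0778% of genes were called in females and 0% in males). The G12 effect on Hlf in females minus that in males was -0.71 ± 0.29 (adjusted p = 0.474), and 0 of the 6 genes were called in that comparison (0.0333% of all genes). The G12 and G35 comparisons share their control mice, so the high control Hlf values enter both. Nr1d2 in females was at 8.34, 7.66 and 8.46 under G12, against 7.72, 8.97 and 8.55 in control 1, and it spanned more in the controls than it differed between the groups. The female difference was -0.26 log2, and -0.01 without G12 replicate 2. Set directly against G12, G35 averaged -0.35 ± 0.16 for Dbp (unadjusted p = 0.0344, adjusted p = 1.00) and 0.36 for Nr1d2, or 0.24 without that mouse. None of the 6 was called in that comparison (0% of genes).

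**Figure D2:**
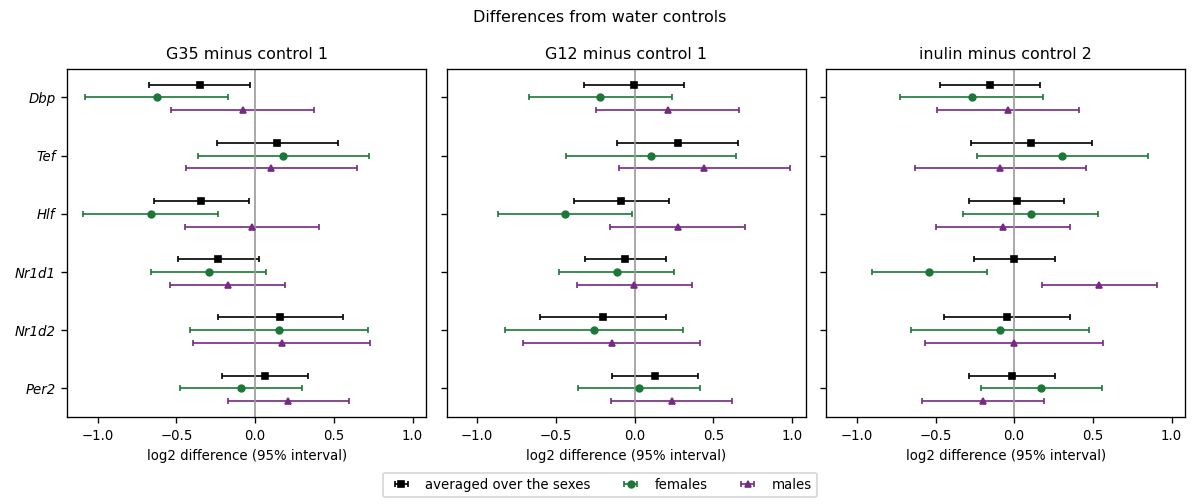
Log2 difference (x axis) between gavaged and control mice for each gene (y axis), averaged over the sexes, in females and in males; points are estimates of the fit and bars their 95% intervals. Before adjustment 2 of the 18 averaged intervals and 5 of the 36 in 1 sex exclude 0: Dbp and Hlf under G35, averaged and in females, Hlf under G12 in females, and Nr1d1 under inulin in each sex. After adjustment 0 of the differences shown passed adjustment.

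Inulin left the averaged levels within -0.15 to 0.11 log2 of control 2 for all 6 genes, each with an adjusted p of 1.00 (0% of genes called, with 178 at an unadjusted p under 0.05). For Nr1d1 the average hid opposite values in the sexes. Female inulin livers had 6.70, 6.45 and 6.69, against 6.93, 7.36 and 7.17 in female control 2. Each inulin female was lower, a difference of -0.54 ± 0.18. Male inulin livers had 7.42, 6.73 and 7.04, against 6.56, 6.46 and 6.54 in male control 2. Each inulin male was higher, a difference of 0.54 ± 0.18. Groups were as fully separated downward for 4.95% of all genes in females and upward for 4.75% in males. As scanned, Nr1d1 read 105, 66 and 82 in female inulin arrays and 105, 261 and 168 in female control 2 arrays. Their array medians were 257, 150 and 178, against 213, 436 and 318. In males Nr1d1 read 145, 72 and 232 under inulin and 130, 98 and 81 in control 2. The male array medians were 215, 141 and 511, against 432, 304 and 206. The part of array brightness in these differences was not tested.

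Neither Nr1d1 difference passed (adjusted p = 1.00 in each sex, where 0% of genes were called). The test of the difference itself, females minus males, gave -1.08 ± 0.25 log2, with an unadjusted p of 0.000232 and an adjusted p of 0.696. Over the alternatives run it was -1.34 to -0.91, with adjusted p from 0.0920 to 1.00, and 0% of all genes were called. On shared slides, Nr1d1 differed by -0.79 and -0.47 in females (2 slides) and by 0.48, 0.95 and 0.19 in males (3 slides). The male value rests on control 2 levels that were themselves the lowest of the 10 groups. Dbp, named above with Nr1d1 among the most strongly cycling messages, differed by -0.27 in females and -0.04 in males under inulin. Neither value was called.

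Across G35, G12 and inulin, 0 of the 78 differences of these genes, in 13 comparisons, were called. Of these, 11 had an unadjusted p under 0.05. The count was also 0 with slide as a fixed block (lowest adjusted p = 0.0809), with slide as a random block (0.116), with replicate number as a block (0.228) and with both blocks (0.0920). The backgrounds differed between these fits. With slide as a fixed block 0.456% of all genes were called under G35 averaged, 0.867% in females and 0.356% in males, and under G12 0.0333% averaged, 4.55% in females and 0% in males. Under inulin it was 0.0445% averaged and 0% in each sex. The G12 effect differed between the sexes for 0.7% of genes, and G35 differed from G12 for 0.1%. With slide as a random block the share was 0.367% under G35 averaged, 0.0556% in females and 0.456% in males, 1.14% under G12 in females and 0.322% for the sex difference under G12. With replicate number as a block it was at most 0.0778% in any of the 13 comparisons, and with both blocks at most 1.4%. The data still allow sizeable shifts. Over the 18 averaged differences, 95% intervals reached from -0.67 (0.627-fold, Dbp under G35) to 0.66 (1.58-fold, Tef under G12). Over the 36 differences in 1 sex they reached from -1.09 (0.470-fold, Hlf under G35 in females) to 0.98 (1.98-fold, Tef under G12 in males).

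Between the control groups of the experiments, 1 of the 6 genes was called. Nr1d1 was lower in control 2 than in control 1 by 0.50 ± 0.13 log2 averaged over the sexes (-0.50, 0.709-fold, 6 mice against 6, adjusted p = 0.00688), where 22.9% of all genes were called. The call held under 21 of 21 alternatives, with adjusted p from 0.00316 to 0.0251, the highest with slide as a random block (18.3% of genes called). A share of 1 in 6 is no larger than the background. Slides lie within experiments, so slide and experiment cannot be told apart here.

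By sex, the Nr1d1 difference was -0.01 in females (adjusted p = 0.976; 7.75% of genes called) and was called in males. Nr1d1 in males was at 6.56, 6.46 and 6.54 in control 2, against 7.59, 7.52 and 7.39 in control 1, a difference of -0.98 (0.508-fold, adjusted p = 0.00359; 6.93% of genes called), called in 15 of 15 alternatives. As scanned, these arrays read 130, 98 and 81 intensity units in control 2, against 140, 153 and 192 in control 1, while their array medians were 432, 304 and 206 in control 2, against 190, 221 and 315 in control 1. In replicate 1, values of 130 and 140 as scanned thus became 6.56 and 7.59 after normalization. The part of array brightness in this difference was not tested. With slide as a random block, 10.4% of genes were called in females and 7.46% in males. The difference between the sexes, females minus males, was 0.96 (adjusted p = 0.257) and was not called, nor was it for any gene tested (0%, with 556 at an unadjusted p under 0.05). With slide as a block it was called for 1.43% of genes and for 0 of the 6.

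Dbp pointed the same way as Nr1d1 in males. It was at 11.02, 11.57 and 11.45 in male control 2, against 11.90, 11.62 and 12.38 in male control 1, and the groups did not overlap, as for 13.1% of genes in the lower direction. The male difference was -0.62 (adjusted p = 0.0845) and the averaged one -0.38 ± 0.16 (adjusted p = 0.0818). The averaged difference was called under 5 of 21 alternatives: with 75th percentile scaling (-0.49), median centring (-0.52), cyclic loess (-0.44), without male control 1 replicate 2 (-0.46, adjusted p = 0.0495) and without female control 2 replicate 1 (-0.49, adjusted p = 0.0266). With every probe tested, the other Dbp probe was called too (-0.38, adjusted p = 0.0416) and the one used here was not. The share of all genes called was not counted under these settings. Nr1d2 differed by 0.35 averaged (adjusted p = 0.191), opposite in sign to Nr1d1, and Tef, Hlf and Per2 were not called.

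**Figure D3:**
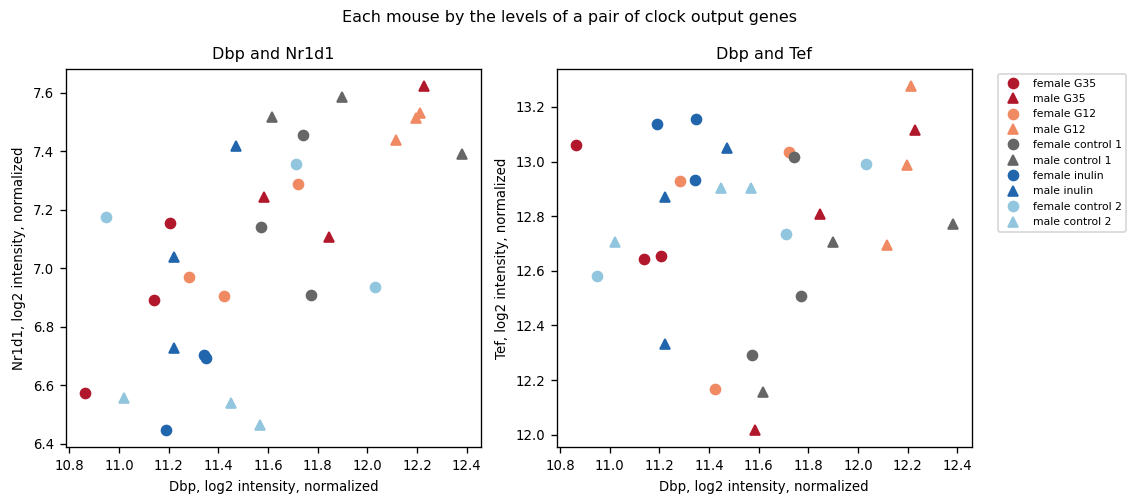
Each mouse placed by its normalized log2 intensity of Dbp (x axis) and of Nr1d1 or Tef (y axis); circles are females, triangles males, and colours are gavages. Male control 2 mice lie at Nr1d1 levels of 6.46 to 6.56 and male control 1 mice at 7.39 to 7.59.

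None of the 5 genes set aside to check sex had a probe with its symbol among those used here, so the sex labels were not checked. Among controls, females had more Hlf than males by 0.45 ± 0.15 log2 (9.00 in females, 8.55 in males, 6 mice each), which did not pass (adjusted p = 0.0722; 5.46% of genes were called). Female control livers had 9.77, 8.66 and 9.30 in control 1 and 9.28, 8.48 and 8.51 in control 2. Male control livers had 8.23, 8.35 and 8.68 in control 1 and 8.65, 8.75 and 8.66 in control 2. The 3 highest values are all female and 3 females overlap the males. With slide as a block the difference was 0.64 and passed (adjusted p = 0.0228; 12.6% of genes called), and with slide as a random block it was 0.47 (adjusted p = 0.0306; 10.4% called). The replicate block gave 0.45 (adjusted p = 0.0501; 8.14% called), and both blocks together 0.65 (adjusted p = 0.0783; 6.38% called). The call with slide was lost without female control 1 replicate 3 (adjusted p = 0.0712) or male control 2 replicate 3 (0.138). In the inulin experiment only slide 10 held both sexes, and its only female was female control 2 replicate 1 (Hlf at 9.28). With slide as a fixed block, this comparison could not be fitted without that array. The other 5 genes were at -0.37 (Nr1d2) to 0.15 (Nr1d1) and were not called.

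Whether mice of the same group that were high in one clock gene were also high in another was read from residuals, each mouse's deviation from its group mean, over 30 mice. Among 33 relations (15 between the 6 genes, 12 with Clock and Nfil3, and 6 with the array's median intensity) 0 passed a two-sided permutation test within groups after adjustment over the 33, and 10 had an unadjusted p under 0.05. The shuffles treat mice of a group as exchangeable, although same-numbered chicory arrays of different groups were alike, so r is also given with replicate number removed. Pearson's r over the 15 pairs ran from -0.62 to 0.51. Dbp and Tef had the highest (r = 0.51, permutation p = 0.0108, adjusted p = 0.0890; Spearman's rho = 0.49, permutation p = 0.0202), with r = 0.54 in the chicory and 0.58 in the inulin experiment, and 0.52 without the 2 mice farthest in Dbp. With replicate number removed r was 0.38. With slide removed r was -0.09, a value from 12 residual degrees of freedom that was not tested.

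Hlf and Nr1d2 had the lowest (r = -0.62, permutation p = 0.00954, adjusted p = 0.0890; rho = -0.55, permutation p = 0.00926). Here r was -0.77 in chicory and -0.34 in inulin mice, -0.57 without the 2 mice farthest in Hlf, -0.71 with replicate number removed and -0.84 with slide removed. Without female G12 replicate 2 it was -0.63 in all mice, -0.81 in chicory mice and -0.61 with slide removed.

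Clock, which encodes the partner of BMAL1, had a negative r with the PAR bZIP genes and a positive one with Nr1d2, none of which passed. Tef and Clock had r = -0.55 (permutation p = 0.0046, the lowest of the 33, adjusted p = 0.0890; rho = -0.52, permutation p = 0.00947), with -0.51 in chicory and -0.70 in inulin mice, -0.55 without the 2 mice farthest in Tef, -0.60 with replicate number removed and -0.21 with slide removed. Dbp and Clock had r = -0.53 (permutation p = 0.0142, adjusted p = 0.0937; rho = -0.54, permutation p = 0.0190), with -0.39 in chicory and -0.71 in inulin mice, -0.48 without the 2 farthest mice, -0.62 with replicate number removed and -0.57 with slide removed. Hlf and Clock had r = -0.50 (permutation p = 0.146, adjusted p = 0.344; rho = -0.38, permutation p = 0.110). Nr1d2 and Clock had r = 0.65 (permutation p = 0.00659, adjusted p = 0.0890; rho = 0.58, permutation p = 0.00845), with 0.51 in chicory and 0.89 in inulin mice, 0.52 without the 2 farthest mice and 0.62 with replicate number removed. Without the patched array it was 0.78. With slide removed it was 0.55, but 0.16 once the patched array was left out too.

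The other relations with an unadjusted p under 0.05 were Tef with Hlf (r = 0.42), Tef with Per2 (-0.42), Nr1d2 with Per2 (0.45, or 0.61 without the patched array), Tef with Nfil3 (0.41) and Nr1d2 with array brightness, each with an adjusted permutation p of 0.145 to 0.153. With 75th percentile scaling r was 0.01 for Nr1d2 with Per2 and -0.07 for Tef with Per2. It was 0.44 for Tef with Hlf, 0.40 for Tef with Nfil3 and 0.36 for Nr1d2 with array brightness. Dbp and Nr1d1 had r = 0.22 (permutation p = 0.302, adjusted p = 0.466; rho = 0.31, permutation p = 0.158), and 0.58 with slide removed. Of the 15 pairs, 10 kept the sign of r with slide removed, 15 kept it with replicate number removed, and 13 had the same sign in both experiments. With 75th percentile scaling the sign changed for Hlf with Nr1d1, Hlf with Per2 and Nr1d1 with Per2, and was kept for the others.

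Array brightness, the log2 of the array's median intensity, passed with 0 of the 6 genes. The lowest p was that of Nr1d2 (r = 0.42, permutation p = 0.0463, adjusted p = 0.153), and the signs were mixed between experiments: r was 0.64 in chicory and -0.26 in inulin mice for Dbp, and 0.35 and -0.80 for Tef. With slide removed, where no test was run, r was 0.78 for Dbp and 0.60 for Nr1d1, against 0.13 and 0.34 without that step. The part of brightness in the relation of Dbp and Nr1d1 within slides was not tested.

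**Figure D4:**
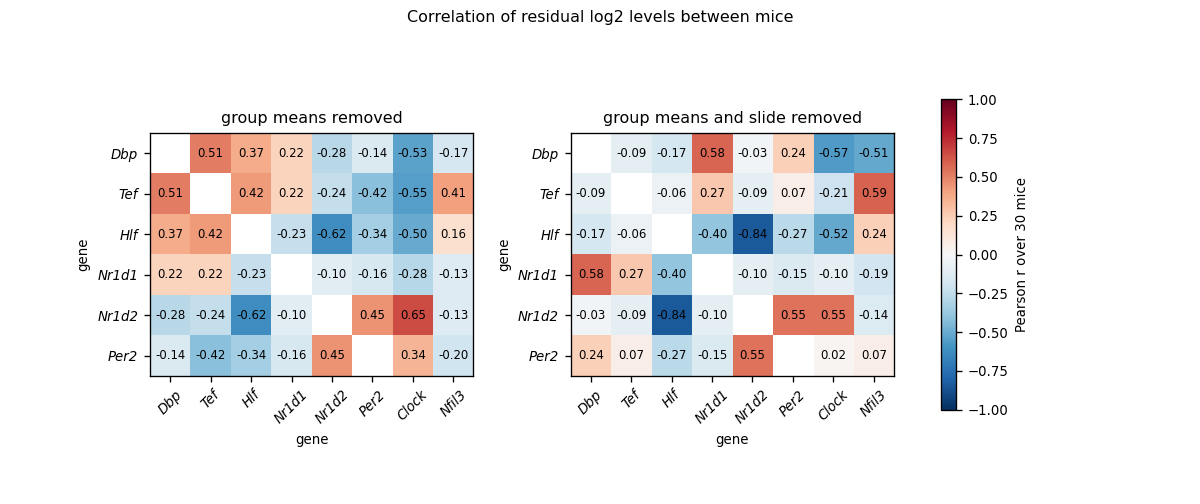
Pearson r of residual log2 levels over 30 mice between each of the 6 genes (y axis) and the same genes, Clock and Nfil3 (x axis), after removing group means (left) or group means and slide (right). Dbp with Tef goes to -0.09 once slide is removed, against 0.51 before, and Hlf with Nr1d2 goes to -0.84, against -0.62 (-0.61 against -0.63 without the patched array).

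The genes whose residuals ran most closely with each of the 6 over the 30 mice were, by Pearson's r, Nudt16l1 for Dbp (0.79), Mcoln1 for Tef (0.88), Ccdc97 for Hlf (0.85), Imp4 for Nr1d1 (0.80), Iqgap2 for Nr1d2 (0.87) and Pdk1 for Per2 (0.85). Those most opposed were Insc for Dbp (-0.69), Clpp for Tef (-0.86), Tmem267 for Hlf (-0.84), Scd2 for Nr1d1 (-0.72), Trmu for Nr1d2 (-0.83) and Tspan33 for Per2 (-0.80). Without the patched array Nr1d2 had 0.89 with Iqgap2 and -0.81 with Trmu. None of these 12 is on either clock list. They share arrays and slides, and were picked from 8996 genes for this measure.

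Other genes of the loop were read from a list of 20 clock genes, 13 of them measured. Under G35 averaged over the sexes 1 of 13 was called, higher (0.0556% of all genes), and 11 of 13 were above 0, with a median of 0.18 against -0.01 for all genes. The gene was Nfil3, a repressor that competes with DBP, TEF and HLF at D-boxes (0.95 ± 0.16 log2, adjusted p = 0.0140). It was called in 16 of 23 alternatives and lost with both blocks, with only the groups compared, and without male control 1 replicate 2 or 3, male G35 replicate 3, or female G35 replicate 1 or 3 (adjusted p up to 0.0892). Under G35 in females 7 of 13 were above 0 (median 0.00, 0 called, beside 0% of all genes). In males 12 of 13 were (median 0.53, 0 called, beside 0.0111% of all genes). Nfil3 was at 1.25 in females (adjusted p = 0.0587). Per1, a repressor like Per2, was at -0.62 in females (adjusted p = 0.384) and 1.00 in males (adjusted p = 0.0594). The male value was called with slide as a fixed (adjusted p = 0.0327) or random block (0.00811), and not with replicate number (0.106) or both (0.0871). That difference between the sexes passed (-1.61 ± 0.29, adjusted p = 0.0457; 0.0222% of genes called), but in only 7 of 23 alternatives. It was lost with replicate number as a block (adjusted p = 0.151), with slide as a fixed block (0.0835) and with both (0.272), and kept with slide as a random block (0.0113). Noct, a phosphatase with a strong daily cycle, was at 1.02 in males (adjusted p = 0.182). Under G12 and inulin averaged over the sexes 0 of 13 were called (0% of all genes in each).

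In control 2 against control 1, 2 of 13 clock genes rose and 1 fell (22.9% of all genes called). Noct rose by 0.86 ± 0.17 (adjusted p = 0.00135) and Rora, an activator that competes with the REV-ERBs, fell by 0.69 ± 0.17 (adjusted p = 0.00468), both in 20 of 20 alternatives, while Nampt, an enzyme of NAD synthesis, rose by 0.62 ± 0.22 (adjusted p = 0.0456), in 8 of 20. By sex, Noct was called in males only (1.69, adjusted p = 0.000921; 6.93% of genes called). Rora was called in females only (-0.91, adjusted p = 0.0197; 7.75% of genes called). In control females against males 1 was higher and 1 lower (5.46% of all genes called): Per1 by 1.01 ± 0.14 log2 (adjusted p = 5.81e-05) and Nfil3 by -1.02 ± 0.16 (adjusted p = 0.000272), both in 23 of 23 alternatives.

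The genes that clock factors are known to drive in liver were read from a list of 18, with 15 measured. Under G35, G12 and inulin averaged over the sexes 0 of 15 were called (0.0556%, 0% and 0% of all genes). The lowest p under G35 was that of Lpin1, a phosphatidate phosphatase and regulator of lipid metabolism, at 1.03 ± 0.29 (adjusted p = 0.263). In control 2 against control 1, 3 of 15 rose and 3 fell (22.9% of all genes called). Nr1i3, the xenobiotic receptor CAR and a target of the PAR bZIP factors, rose by 1.45 ± 0.17 (adjusted p = 1.52e-05) and Tfrc, the transferrin receptor, rose by 0.95 ± 0.16 (adjusted p = 0.000416). Ces3a, a carboxylesterase gene, fell by 0.45 ± 0.14 (adjusted p = 0.0262, in 15 of 20 alternatives) and Leap2, a hepatic peptide gene, fell by 0.76 ± 0.24 (adjusted p = 0.0275, in 13 of 20). By sex, Nr1i3 and Tfrc were called in both, Leap2 in males only (-1.52, adjusted p = 0.0113; 6.93% of genes called) and Ces3a in neither. In control females against males 2 of 15 were higher and 1 lower (5.46% of all genes called). Cyp2b10, a CAR target, led at 1.85 ± 0.21 (adjusted p = 2.37e-06), with Ces3a at -0.94 ± 0.14 (adjusted p = 0.000167) and Cyp2a4 at 0.98 ± 0.22 (adjusted p = 0.00648, lost with both blocks at 0.0856).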

How the data were processed

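Liver RNA of 30 mice was measured on arrays. The submitters' processing notes name Agilent Feature Extraction, and its version and the signal column are not given in the sources used here. The deposited values are linear array intensities, whole numbers from 39 to 65535, with unequal medians, so they were taken as not normalized. Of 15505 probes, 12544 carried 1 gene symbol, 2961 none and 0 several (GEO's platform annotation; all 12544 were found in RefSeq by Entrez identifier and 0 symbols changed). Here they were background corrected (normexp, offset 50), quantile normalized and put on the log2 scale, with the brightest probe per gene (1869 genes had several). This yielded 8996 genes. Since detection flags were not used here, levels below background could not be marked.

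limma 3.58.1 in R 4.3.3 fitted all 30 arrays in 10 groups (20 residual degrees of freedom), with Benjamini-Hochberg adjustment over all genes, for 15 comparisons and 3 added after seeing the data (control 2 minus control 1 by sex, and the difference). The fit was tested on simulated data. Correlations used residuals shuffled within groups (100000 shuffles, Python 3, NumPy and SciPy). The number of arrays limits the precision, and replicates are separate mice per the labels. The 6 genes and the gene lists were chosen with earlier results of these data known. Named genes were the 6, the first of each list in a comparison, up to 4, with called genes first and then by p, and the closest residuals. Protein sequences were not compared here.

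As a check of pairing, residuals over all genes were compared between same-numbered arrays of different groups. They correlated at 0.121 to 0.706 in the chicory experiment (45 of 45 pairs over 0.1) and at -0.525 to 0.404 in the inulin experiment (18 pairs). Same-numbered arrays were thus alike in the first only. There number 1 lay on slides 5 and 6, number 3 on slides 1 and 2, and number 2 mostly on slide 4. Number and slide can therefore not be fully told apart, and the part of slide in this likeness was not tested. Whether a number marks a litter, cage or day is not given in the sources used here. The search for patches of low signal around each probe, and leaving out female G12 replicate 2 for Nr1d2, correlations with replicate number removed, and blocked values of list genes were added after seeing the data. Alternatives were slide and replicate as blocks, other scalings, background, filters and probes, only the groups compared, and each array left out.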

Additional observations from a re-analysis of the deposited data

Results flagged for a closer look

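The effect of each chicory decoction on Per1, a repressor gene of the same loop, differed between females and males by limma's test of that difference. Under G35, Per1 averaged 8.97 log2 in G35 and 9.58 in control 1 females, and 9.12 in G35 and 8.12 in control 1 males, so that the effect in females minus that in males was -1.61 log2 (adjusted p = 0.0457). Under G12, Per1 averaged 8.92 in G12 and 9.58 in control 1 females, and 9.01 in G12 and 8.12 in control 1 males, with a difference of -1.55 log2 (adjusted p = 0.0493). Both comparisons use the same control mice, and the calls held in 7 of 23 alternatives for G35 and 8 of 23 for G12, with adjusted p up to 0.272 and 0.458. Same-numbered chicory arrays were alike, and with replicate number as a block neither call held (adjusted p = 0.151 for G35 and 0.0531 for G12), nor with both blocks (0.272 and 0.0717). The fixed slide block lost the call for G35 (0.0835) and kept it for G12 (0.0402). Within 1 sex none of these Per1 differences was called without a block, and with slide as a fixed block the G35 difference in males was (1.00, adjusted p = 0.0327). Among the 6 clock output genes, no such difference was called.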

How the results depend on the processing

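Of 2232 differences of the 6 genes under alternatives, 2217 kept their side of the threshold, 15 gained a call, 0 lost one and 0 reversed with a call. Of the 2181 uncalled under both, 158 changed sign, none with an unadjusted p under 0.05. Counts of members called moved as follows. The share of all genes called was not counted under other scalings, with every probe or with arrays left out. For G35 minus control 1 in females the count was 0, and 0 to 1 with arrays left out. For control 2 minus control 1 it was 1 averaged over the sexes, 2 with 75th percentile scaling, median centring, cyclic loess or every probe (through Dbp), and 1 to 2 with arrays left out. In males it was 1, and 2 with 75th percentile scaling, median centring or cyclic loess. In females it was 0, and 0 to 1 with arrays left out (Hlf at -0.78 without female control 1 replicate 2, -0.75 without female control 2 replicate 1). For females minus males among controls it was 0, 1 with slide as a block (fixed or random) and 0 to 1 with arrays left out. Relations passing numbered 0, but 1 with 75th percentile scaling (Per2 with array median intensity, r = -0.70, permutation p adjusted 0.0228) and 1 in the inulin experiment alone (Nr1d2 with Clock, r = 0.89, permutation p adjusted 0.0449). Where a value does not show otherwise, the cause was not tested.

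The replicate block called 0 members under the gavages (lowest adjusted p = 0.228) and changed no other call of a member. With slide as a block and 1 array left out, Nr1d2 under G12 was called averaged (-0.64, adjusted p = 0.0211) and in females (-1.18, adjusted p = 0.0109) without female control 1 replicate 1. Those values include the array with the patch at Nr1d2. The share of all genes called was not counted in these fits with an array left out. With all arrays and slide as a block it was 0.0333% under G12 averaged and 4.55% in females, 0.867% under G35 in females, and 0.7% for the sex difference under G12. Hlf was called under G35 in females (-0.99, adjusted p = 0.0467) without female control 1 replicate 2, and under G12 in females (-1.03, adjusted p = 0.0247) and between the sexes (-1.25, adjusted p = 0.0152) without female G12 replicate 2. Slide or replicate as a fixed block could not be fitted to control 2 minus control 1, averaged or in 1 sex. Scaling to the 75th percentile moved the median gene by -0.14 to 0.15 log2, and by over 0.1 in 6 comparisons. The Per2 spread was 0.356 log2 with it, against 0.232. Dim signal limits Nr1d1 and Per2, whose differences can shrink toward 0 near background or shift with the scaling of arrays of unequal brightness.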
